A study of Mus musculus with 29 samples.

Results

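The fatty acid synthesis genes described here are Fasn, Acaca, Acly, Scd1, Scd2, Srebf1, Elovl6, Me1, Gpam and Mlxipl. They were chosen by name, and every probe whose accession matched one of them was taken from the scanner files. All 10 genes were found, with 14 probes, among the 15350 genes that passed the filter on dim probes. Only Acaca and Fasn had several probes. Each of the 14 probes was well above background on all 29 arrays, so no member passed the filter through a single group.

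RNA of whole lung from C57BL/6 mice, 6-8 weeks old, was measured on 29 single-colour Agilent microarrays. The mice were wild type or Klf15 knockout and were given either saline or 2.5 mg/kg of the synthetic glucocorticoid dexamethasone. The wild-type groups held 4 arrays for saline at 4 h, 3 for saline at 8 h, 4 for dexamethasone at 4 h and 3 for dexamethasone at 8 h. The knockout groups held 3 arrays for saline at 4 h and 4 each for saline at 8 h, dexamethasone at 4 h and dexamethasone at 8 h. The labels describe the replicates as biological, and say neither which part of Klf15 is deleted nor in which cells. Klf15 belongs to the Krüppel-like transcription factors, glucocorticoids are known to induce it, and the title of the series names the circuit of the receptor and Klf15 as its subject.

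Fatty acids are built in the cytosol from citrate that leaves the mitochondria. ATP citrate lyase (Acly) turns citrate into acetyl-CoA, acetyl-CoA carboxylase (Acaca) turns that into malonyl-CoA, and fatty acid synthase (Fasn) joins these units into palmitate, using NADPH that malic enzyme (Me1) helps to supply. Elovl6 lengthens palmitate, Scd1 and Scd2 introduce a double bond, and Gpam attaches the first fatty acid to glycerol-3-phosphate. Srebf1 encodes SREBP-1, which is held in the membrane of the endoplasmic reticulum until it is cleaved, and Mlxipl encodes ChREBP, which responds to glucose metabolites; both switch on most of these enzymes. In the lung, alveolar type 2 cells make fatty acids for the phospholipids of surfactant, and glucocorticoids are known to promote that synthesis before birth.

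Promoter sequence is shown for Mlxipl, whose genotype difference was the largest among the members, and for Fasn, whose dexamethasone change in the knockout at 4 h was the largest among them. RefSeq sequences of build GRCm38.p6 were at hand for 8 of the 10 genes, with 13 start sites; none was matched for Scd1 and Scd2. Each window is the 250 bases before an annotated start, read 5′ to 3′ on the gene's strand, and capitals mark matches to the motifs searched. The first Mlxipl window is chr5:135089640-135089889 on the plus strand, the second is chr5:135106641-135106890 on the plus strand, and the Fasn window is chr11:120824548-120824797 on the minus strand.
Mlxipl, upstream start: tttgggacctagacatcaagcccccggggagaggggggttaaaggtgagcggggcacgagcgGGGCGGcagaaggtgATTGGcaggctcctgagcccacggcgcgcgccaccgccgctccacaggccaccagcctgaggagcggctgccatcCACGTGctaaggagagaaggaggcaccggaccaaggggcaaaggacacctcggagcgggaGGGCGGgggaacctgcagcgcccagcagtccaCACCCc
Mlxipl, downstream start: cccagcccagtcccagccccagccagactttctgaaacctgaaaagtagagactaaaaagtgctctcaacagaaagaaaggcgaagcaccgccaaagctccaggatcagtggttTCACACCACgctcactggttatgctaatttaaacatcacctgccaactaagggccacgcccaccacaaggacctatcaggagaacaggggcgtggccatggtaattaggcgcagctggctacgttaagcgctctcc
Fasn: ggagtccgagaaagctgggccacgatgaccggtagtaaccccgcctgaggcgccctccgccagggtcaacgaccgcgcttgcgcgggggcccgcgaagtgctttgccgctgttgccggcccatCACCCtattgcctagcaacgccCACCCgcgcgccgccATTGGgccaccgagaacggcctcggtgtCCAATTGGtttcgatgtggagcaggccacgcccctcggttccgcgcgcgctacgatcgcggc

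The motifs were searched on both strands, and matches may overlap. They were the GC box GGGCGG, found in 32.7% of the 32851 windows of that length in the same RefSeq table, the CACCC box in 52%, the CCAAT box in 33.8%, the E-box CACGTG in 6.02%, the sterol regulatory element core TCACNCCAC in 1.05% and the glucocorticoid response element in 0.387%. Krüppel-like factors bind GC and CACCC boxes, and SREBP binds the sterol element beside CCAAT boxes. The upstream Mlxipl window held 2 GC boxes, beginning 188 and 38 bases before the start, a CACCC box 6 bases before it, a CCAAT box and an E-box. The downstream Mlxipl window held the sterol core TCACACCAC, beginning 136 bases before the start, and no other match. The Fasn window held 2 CACCC boxes, beginning 127 and 105 bases before the start, and 3 CCAAT boxes, of which the last 2 overlap. No window of these 8 genes held the letters searched for the glucocorticoid response element. These matches describe the letters alone.

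Relative signal below means the log2 of a probe's processed signal minus the log2 of the 75th percentile of its array, so 0 is the level of that percentile; levels are compared only within a probe. Differences come from a linear model over all 29 arrays, and a gene is called, and said to rise or fall, when its adjusted p is under 0.05. The 75th percentile itself lay between 2043 and 3332 on saline arrays and between 1636 and 2427 on dexamethasone arrays. Klf15 had a relative signal of 1.95 to 4.29 over the 4 wild-type groups and of -0.89 to 1.37 over the 4 knockout groups. At each treatment and time every knockout array lay below every wild-type array, and knockout minus wild type was -2.94, -3.04, -2.95 and -2.91 (log2) for saline at 4 and 8 h and dexamethasone at 4 and 8 h. The Klf15 probe still rose with dexamethasone in the knockout, by 1.92 ± 0.22 (SE) at 4 h, and no label tells whether it lies in the deleted part. Fkbp5, a chaperone gene and known target of the glucocorticoid receptor, rose at 4 h by 3.07 ± 0.44 (SE) in the wild type and 4.22 ± 0.48 in the knockout. In the wild type at 8 h its difference was -0.02 ± 0.51 (adjusted p = 0.982). In the knockout at 8 h its arrays read -0.41 to 0.51 in saline and 1.01 to 1.76 with dexamethasone, with means of 0.02 and 1.33. Tsc22d3, another target, rose in all 4 dexamethasone comparisons.

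The 7 knockout saline arrays stood apart. They had a lower ratio of bright to dim probes of the same gene, from -0.368 to -0.116 on a log2 scale centred over arrays, than the 22 other arrays, at -0.0836 to 0.286. These arrays are the knockout side of the saline genotype comparisons and also the baseline of the dexamethasone comparisons in the knockout, so the values of these comparisons are not independent of each other. Below, where that ratio as a covariate or quantile normalization of the arrays ended or made a call of a member, the value is given. The markers of lung cells were present: Sftpc of type 2 cells lay between 7.15 and 8.19, and Scgb1a1 of club cells between 6.96 and 8.20. Alb, a liver gene, lay between -4.31 and -1.50. In bulk tissue, fewer cells of a type and less RNA per cell cannot be told apart.

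**Figure D1:**
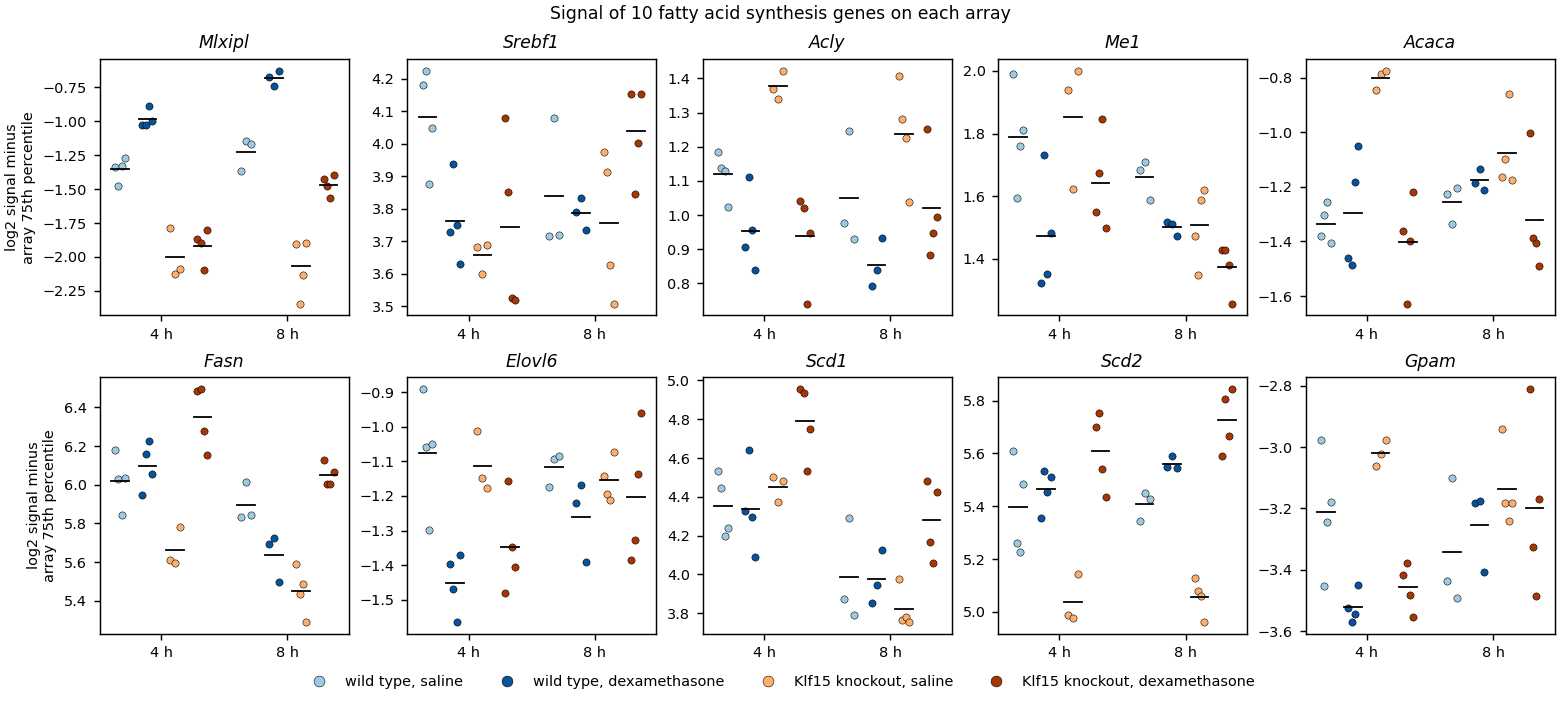
Relative signal (log2 signal minus the array's 75th percentile, y axis, with its own scale for each gene) of the 10 genes on each of the 29 arrays; each point is an array, coloured by genotype and treatment, the bar is the group mean, and the x axis separates 4 h from 8 h. The knockout points of Mlxipl lie below the wild-type points of the same treatment and time in all 4 pairs, and the 7 knockout saline points of Fasn and Scd2 are the lowest or near the lowest of those genes.

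Mlxipl, the gene of the carbohydrate-responsive factor ChREBP, was lower in the knockout under every treatment and time. In saline at 4 h the 4 wild-type arrays read -1.34, -1.47, -1.33 and -1.27, and the 3 knockout arrays -1.79, -2.12 and -2.09. In saline at 8 h the wild-type arrays read -1.36, -1.15 and -1.17, and the knockout arrays -1.90, -2.34, -2.13 and -1.90. The highest knockout array thus lay below the lowest wild-type array at both times. With dexamethasone at 4 h the wild-type arrays read -1.03, -1.03, -0.89 and -1.0, and the knockout arrays -1.87, -1.90, -2.09 and -1.80. With dexamethasone at 8 h the wild-type arrays read -0.67, -0.74 and -0.63, and the knockout arrays -1.43, -1.48, -1.57 and -1.40. Here too the genotypes did not overlap.

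The knockout difference of Mlxipl was -0.65 ± 0.10 (SE; adjusted p = 0.000276) in saline at 4 h and -0.84 ± 0.10 (adjusted p = 1.25e-05) at 8 h. It was -0.93 ± 0.09 (adjusted p = 4.48e-07) under dexamethasone at 4 h and -0.79 ± 0.10 (adjusted p = 1.91e-05) at 8 h, which are levels of 0.525 and 0.579 times the wild type. In the comparison under dexamethasone at 4 h it was the only member called, where 0.899% of all genes were called, 0.619% as lower, and 6.08% of all genes had arrays that did not overlap. Slide 1 held both genotypes in saline at 8 h, and there the difference between 1 array of each was -0.73. In the other genotype comparisons no slide held arrays of both genotypes, so no such difference could be taken. The call was lost under 1 of the settings tried, the bright-to-dim ratio as a covariate in saline at 4 h, with a difference of -0.57 (adjusted p = 0.243).

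Dexamethasone raised Mlxipl in the wild type, by 0.37 ± 0.09 (SE; 1.29-fold, adjusted p = 0.00255) at 4 h and by 0.55 ± 0.11 (1.46-fold, adjusted p = 0.000497) at 8 h. In the knockout the difference at 4 h was 0.08 ± 0.10 (adjusted p = 0.54), and at 8 h Mlxipl rose by 0.60 ± 0.09 (1.52-fold, adjusted p = 1.36e-05). The dexamethasone effect in the knockout was larger at 8 h than at 4 h by 0.52 ± 0.13 (adjusted p = 0.0328), the only member called in that comparison, where 3.06% of all genes were called, 1.21% as higher. The effects of the genotypes were not shown to differ: knockout minus wild type was -0.28 ± 0.13 (SE; adjusted p = 0.153) for the 4 h effect and 0.06 ± 0.14 (adjusted p = 0.83) for the 8 h effect. The time difference in the knockout depended on single arrays: without array 46 of the knockout saline group at 8 h it was 0.43 (adjusted p = 0.074), and without array 41 at 4 h it was 0.41 (adjusted p = 0.15). It was likewise not called without arrays 47, 58, 59, 61 or 64 of the knockout, after quantile normalization, at 0.49 (adjusted p = 0.066), after median scaling, at 0.49 (adjusted p = 0.21), or when only the groups compared were fitted (adjusted p = 0.15). The rise in the wild type at 4 h was 0.28 (adjusted p = 0.064) when arrays were scaled to their medians.

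Over the 29 arrays the genes whose values followed Mlxipl most closely were Lzts3 (r = 0.97), Pxmp2 (r = 0.95) and Prodh (r = 0.93). Pxmp2 encodes a peroxisomal membrane channel and Prodh proline dehydrogenase, the first enzyme of proline breakdown. Prodh, for example, had a mean of 2.36 in wild-type saline at 4 h and 1.38 in the knockout, and of 3.21 and 1.75 under dexamethasone at 8 h. These correlations describe points that share groups, and no p is attached to them.

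Srebf1, the other transcription factor gene, changed less. Its arrays in saline at 4 h read 4.18, 4.22, 3.88 and 4.05 in the wild type and 3.68, 3.60 and 3.69 in the knockout, without overlap, and it was lower in the knockout, with a difference of -0.43 ± 0.13 (SE; adjusted p = 0.0235). At 8 h in saline the knockout difference was -0.08 ± 0.13 (adjusted p = 0.7). Dexamethasone at 4 h lowered Srebf1 in the wild type, with a difference of -0.32 ± 0.12 (adjusted p = 0.0453), and the arrays there read 3.73, 3.94, 3.75 and 3.63, so that 1 of them overlapped the saline range. In the knockout Srebf1 was not called under dexamethasone, at 0.09 ± 0.13 at 4 h and 0.28 ± 0.12 (adjusted p = 0.0699) at 8 h. Both calls were close to the threshold. The wild-type fall was lost under 5 of 14 alternatives, at -0.14 (adjusted p = 0.075) with slide as a fixed block, and when any 1 of 6 arrays (33, 34, 36, 49, 51 or 52) was left out, with values from -0.33 to -0.27. The saline genotype difference was lost under 6 of 14 alternatives, at -0.12 (adjusted p = 0.23) with slide as a fixed block, -0.30 (adjusted p = 0.091) after quantile normalization and -0.10 (adjusted p = 0.88) with the bright-to-dim covariate. It was also lost without array 33, 34, 41, 43 or 44, with values from -0.44 to -0.38. Within the knockout, dexamethasone minus saline at 8 h was called with slide as a fixed block, at 0.14 (adjusted p = 0.042). It was also called without array 45 or 62, at 0.35 both times (adjusted p = 0.034 and 0.041).

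**Figure D2:**
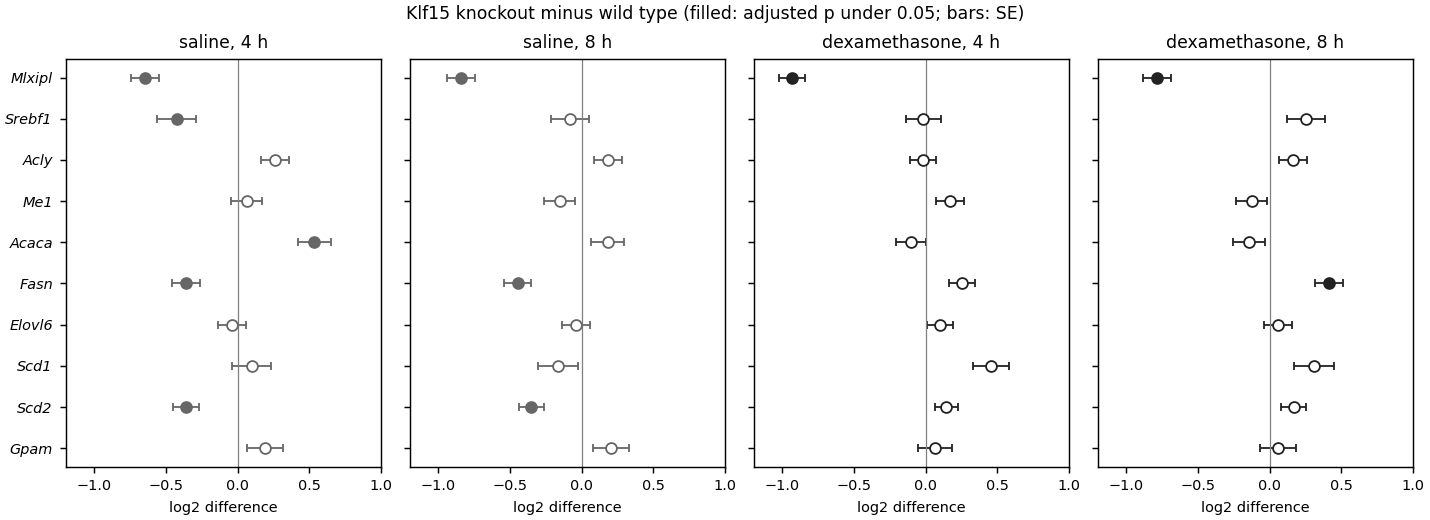
Knockout minus wild type (x axis, log2 difference; bars are SE) for the 10 genes (y axis), in saline and dexamethasone at 4 and 8 h; filled points have an adjusted p under 0.05. Mlxipl is filled at the far left in all 4 panels, and Fasn is left of 0 in both saline panels and right of 0 at 0.41 under dexamethasone at 8 h.

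Fasn, which makes palmitate, was lower in knockout lungs given saline and higher in knockout lungs given dexamethasone for 8 h. In saline at 4 h the wild-type arrays read 6.18, 6.03, 5.84 and 6.03, and the knockout arrays 5.61, 5.59 and 5.78. In saline at 8 h the wild-type arrays read 5.83, 6.02 and 5.84, and the knockout arrays 5.59, 5.44, 5.49 and 5.29. At both times all knockout arrays lay below all wild-type arrays. With dexamethasone at 4 h the wild-type arrays read 5.95, 6.16, 6.23 and 6.05, and the knockout arrays 6.49, 6.49, 6.28 and 6.15. At 8 h the wild-type arrays read 5.69, 5.72 and 5.50, and the knockout arrays 6.13, 6.00, 6.00 and 6.07. The genotypes overlapped at 4 h and did not at 8 h.

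In the knockout, dexamethasone raised Fasn by 0.69 ± 0.10 (SE; 1.61-fold, adjusted p = 3.82e-06) at 4 h and by 0.60 ± 0.09 (1.51-fold, adjusted p = 1e-05) at 8 h. Wild-type differences were 0.08 ± 0.09 (adjusted p = 0.549) and -0.26 ± 0.10 (adjusted p = 0.0697). The effect differed between genotypes by 0.61 ± 0.13 (adjusted p = 0.00631) at 4 h and by 0.86 ± 0.14 (adjusted p = 0.00288) at 8 h. The genotype difference itself was -0.36 ± 0.10 (adjusted p = 0.00956) and -0.45 ± 0.10 (adjusted p = 0.00499) in saline at 4 and 8 h, and 0.41 ± 0.10 (adjusted p = 0.0143) under dexamethasone at 8 h. On slide 4, with both treatments of the knockout at 4 h, dexamethasone minus saline was 0.49, and on slides 3 and 7 at 8 h it was 0.48 and 0.57. The wild-type pairs gave 0.13 and 0.38 on slides 3 and 7 at 4 h, and -0.35 on slide 1 at 8 h. Each is a difference between 1 array of each treatment. Under dexamethasone no slide held both genotypes at the same time, so the genotype difference there has no such pair.

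The size of these Fasn differences moved with the scaling. After quantile normalization the knockout rise at 8 h was 0.31 (adjusted p = 0.053), the saline differences were -0.24 (adjusted p = 0.24) and -0.31 (adjusted p = 0.16), and the differences between genotypes of the dexamethasone effect were 0.54 (adjusted p = 0.073) and 0.57 (adjusted p = 0.11). With the bright-to-dim covariate the saline difference at 4 h was -0.08 (adjusted p = 0.85), and the difference of the effects at 4 h was 0.34 (adjusted p = 0.35). The knockout rise at 8 h was also lost after normexp and quantile, at 0.28 (adjusted p = 0.14). Each saline call was lost under 6 of 14 alternatives, and so was the difference of the effects at 4 h; that at 8 h was lost under 4. The higher level under dexamethasone at 8 h was lost under 6 of 14, with 0.26 (adjusted p = 0.25) after quantile normalization and 0.23 in the deposited table (adjusted p = 0.11) and after normexp and quantile (adjusted p = 0.41). In the wild type Fasn was called higher at 4 h with slide as a fixed block, at 0.19 (adjusted p = 0.015). There it was called lower at 8 h with slide as a fixed block (-0.25, adjusted p = 0.015) or a random block (-0.26, adjusted p = 0.016) and with the bright-to-dim covariate (-0.31, adjusted p = 0.014). The rise in the knockout at 4 h was called under every setting tried. Leaving out knockout array 43 gave -0.32 (adjusted p = 0.052) in saline at 4 h, and leaving out wild-type array 56 gave 0.34 (adjusted p = 0.08) under dexamethasone at 8 h. Fasn had a second, dimmer probe, which rose in the knockout by 0.46 ± 0.14 (adjusted p = 0.0115 over all probes) at 4 h, and whose difference at 8 h was 0.33 ± 0.13 (adjusted p = 0.0524). On that probe neither saline genotype difference was called, at -0.14 and -0.05, nor was the higher level under dexamethasone at 8 h, at 0.47 (adjusted p = 0.069). The differences between genotypes of the dexamethasone effect were smaller there and not called, at 0.25 (adjusted p = 0.44) at 4 h and 0.52 (adjusted p = 0.13) at 8 h.

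Scd2, a stearoyl-CoA desaturase, had the same direction as Fasn in each comparison where both were called. In saline at 4 h the wild-type arrays read 5.61, 5.26, 5.23 and 5.49, and the knockout arrays 4.99, 4.98 and 5.14. In saline at 8 h the wild-type arrays read 5.35, 5.45 and 5.43, and the knockout arrays 5.13, 5.08, 5.06 and 4.96. With dexamethasone the knockout arrays read 5.70, 5.75, 5.54 and 5.44 at 4 h and 5.59, 5.81, 5.67 and 5.84 at 8 h, all above the 7 knockout saline arrays. In the wild type the dexamethasone arrays read 5.35, 5.54, 5.45 and 5.51 at 4 h, within the saline range, and 5.55, 5.59 and 5.54 at 8 h, just above it. Scd2 rose in the knockout by 0.57 ± 0.09 (SE; 1.49-fold, adjusted p = 1.57e-05) at 4 h and by 0.67 ± 0.08 (1.59-fold, adjusted p = 8.56e-07) at 8 h, and in the wild type the differences were 0.07 ± 0.08 and 0.15 ± 0.09, neither called. The effect was larger in the knockout by 0.50 ± 0.12 (adjusted p = 0.0107) at 4 h and 0.52 ± 0.13 (adjusted p = 0.0222) at 8 h. The saline genotype difference was -0.36 ± 0.09 (adjusted p = 0.00615) at 4 h and -0.35 ± 0.09 (adjusted p = 0.0127) at 8 h. With the bright-to-dim covariate these saline values were -0.06 (adjusted p = 0.87) and -0.21 (adjusted p = 0.087), the knockout rise at 4 h was 0.28 (adjusted p = 0.064), and the differences between genotypes of the effect were 0.21 (adjusted p = 0.49) and 0.33 (adjusted p = 0.11). After quantile normalization the saline values were -0.31 (adjusted p = 0.22) and -0.21 (adjusted p = 0.44), the knockout rise at 4 h was 0.40 (adjusted p = 0.055; 0.37, adjusted p = 0.12, after normexp and quantile), and the differences of the effects were 0.55 (adjusted p = 0.12) and 0.24 (adjusted p = 0.61). The saline calls were lost under 5 of 14 alternatives at 4 h and 6 at 8 h, and the differences of the effects under 5 each. The rise at 8 h was lost under 1 of 14, normexp and quantile, at 0.40 (adjusted p = 0.066). Without wild-type array 39 the saline value at 8 h was -0.34 (adjusted p = 0.054), and without array 38 or 64 the difference of the effects at 8 h was 0.50 or 0.48 (adjusted p = 0.055 and 0.05).

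Scd1, the other desaturase, rose in the knockout under dexamethasone, and differed with time in saline. Its knockout arrays read 4.50, 4.37 and 4.48 in saline and 4.96, 4.93, 4.53 and 4.75 with dexamethasone at 4 h, and 3.98, 3.77, 3.78 and 3.76 against 4.48, 4.17, 4.06 and 4.42 at 8 h. The treatments did not overlap at either time. The rises were 0.34 ± 0.14 (SE; adjusted p = 0.0495) and 0.46 ± 0.13 (adjusted p = 0.00521). In the wild type the differences were -0.02 ± 0.13 and -0.01 ± 0.15, and the genotypes' effects were not shown to differ, at 0.36 ± 0.19 (adjusted p = 0.2) and 0.47 ± 0.19 (adjusted p = 0.138). The call at 4 h was lost under 11 of 14 alternatives and without knockout array 41, 43, 44, 57, 58 or 60, with values from 0.29 to 0.37, and was 0.11 (adjusted p = 0.27) with slide as a fixed block. It was 0.11 (adjusted p = 0.6) after quantile normalization and 0.20 (adjusted p = 0.51) with the bright-to-dim covariate. The call at 8 h was lost under 4 of 14 alternatives: quantile normalization at 0.22 (adjusted p = 0.23), normexp and quantile at 0.19 (adjusted p = 0.28), the bright-to-dim covariate at 0.34 (adjusted p = 0.16) and the deposited table at 0.24 (adjusted p = 0.091).

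In knockout saline lungs Scd1 was lower at 8 h than at 4 h, with a difference of -0.63 ± 0.14 (SE; adjusted p = 0.0237). The times did not overlap for Scd1, nor for Fasn, Acaca and Me1, which makes 4 members, all lower at 8 h, against 12.4% of all genes. Scd1 was the only member called there, where 1.08% of all genes were called, and 0.3% lower. Me1, Acaca and Fasn had unadjusted p of 0.004, 0.024 and 0.037 there by the limma fit (adjusted p = 0.17, 0.36 and 0.43). In the wild type the same difference was -0.37 ± 0.14 (adjusted p = 0.188), and no member was called there, where 1.28% of all genes were; at an unadjusted p under 0.05 Scd1 alone passed by the same limma fit. The knockout value was not called without array 41, 43, 44, 46 or 48, with values from -0.67 to -0.61, under median scaling, at -0.55 (adjusted p = 0.2), or when only the groups compared were fitted (adjusted p = 0.064).

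Acaca, whose product malonyl-CoA is the building block of Fasn, was higher in knockout saline lungs at 4 h and fell there with dexamethasone. The brightest of its 4 probes read -1.38, -1.30, -1.26 and -1.41 in wild-type saline at 4 h and -0.84, -0.79 and -0.77 in knockout saline, and -1.36, -1.63, -1.40 and -1.22 in the knockout with dexamethasone. The 3 knockout saline arrays were the highest of the 3 groups. The genotype difference in saline was 0.54 ± 0.11 (SE; 1.45-fold, adjusted p = 0.00232), the fall with dexamethasone in the knockout was -0.60 ± 0.11 (adjusted p = 0.000166), and the dexamethasone effect was lower in the knockout than in the wild type, by -0.64 ± 0.15 (adjusted p = 0.011). At 8 h neither difference was called, at 0.18 ± 0.11 in saline and -0.25 ± 0.11 with dexamethasone. The 8 h difference with dexamethasone was called with array weights, at -0.30 (adjusted p = 0.0028), with slide as a random block, at -0.21 (adjusted p = 0.048), and without array 61, at -0.35 (adjusted p = 0.0061). On slide 4 the knockout difference between treatments at 4 h was -0.62. With the bright-to-dim covariate the 3 values at 4 h were 0.30 (adjusted p = 0.5), -0.37 (adjusted p = 0.097) and -0.41 (adjusted p = 0.37). None of the 3 dimmer probes of Acaca was called in any comparison, and the mean of the 4 probes gave 0.56 (adjusted p = 0.14) for the saline difference and -0.21 (adjusted p = 0.58) for the fall. The difference of the effects was lost under 6 of 14 alternatives, among them median scaling at -0.49 (adjusted p = 0.06).

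Acly, which supplies acetyl-CoA, fell with dexamethasone in the knockout at 4 h. Its arrays read 1.37, 1.34 and 1.42 with saline and 1.04, 1.02, 0.74 and 0.95 with dexamethasone, without overlap, a difference of -0.44 ± 0.10 (SE; adjusted p = 0.000824) that was called under every setting tried. Acly had a single probe, so alternatives in the filter or the probe rule could change only its adjusted p. On slide 4 the difference was -0.68. At 8 h the difference was -0.22 ± 0.09 (adjusted p = 0.0548), and it was called under 8 of 14 alternatives, at -0.29 (adjusted p = 0.0018) with slide as a fixed block and -0.28 (adjusted p = 0.0097) after quantile normalization, and without array 48 or 61. In saline at 4 h knockout minus wild type was 0.26 and not called, but it was called under 8 of 14 alternatives, with 0.37 (adjusted p = 0.0095) after quantile normalization. Wild-type differences were -0.17 ± 0.09 and -0.20 ± 0.10, neither called.

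Gpam, which starts glycerolipid synthesis, fell in both genotypes at 4 h, with differences of -0.31 ± 0.12 (SE; adjusted p = 0.0401) in the wild type and -0.44 ± 0.13 (adjusted p = 0.007) in the knockout. Its knockout arrays read -3.06, -3.02 and -2.98 with saline and -3.42, -3.38, -3.48 and -3.55 with dexamethasone, and at 8 h the difference was -0.06 ± 0.12. The wild-type arrays overlapped, the call was lost under 8 of 14 alternatives, with -0.39 (adjusted p = 0.066) after quantile normalization, and it was lost without any 1 of 7 of the 8 arrays (33, 35, 36, 49, 50, 51 or 52), with values from -0.33 to -0.23. The knockout call was lost under 4 of 14 alternatives: quantile normalization at -0.41 (adjusted p = 0.078), median scaling at -0.37 (adjusted p = 0.087), normexp and quantile at -0.31 (adjusted p = 0.094) and the deposited table at -0.42 (adjusted p = 0.075).

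Elovl6 and Me1, each with a single probe, fell in the wild type at 4 h. Elovl6, which lengthens palmitate, read -0.89, -1.06, -1.30 and -1.05 with saline and -1.40, -1.47, -1.56 and -1.37 with dexamethasone, without overlap, a difference of -0.38 ± 0.09 (SE; adjusted p = 0.00208) called under every setting tried. In the knockout the difference was -0.24 ± 0.10 (adjusted p = 0.0578), called with the bright-to-dim covariate, at -0.47 (adjusted p = 0.015), with slide as a fixed or random block and without array 58, and the genotypes' effects were not shown to differ, at 0.14 ± 0.13 (adjusted p = 0.52). Me1, a source of NADPH, differed by -0.32 ± 0.10 (adjusted p = 0.015) in the wild type, with overlapping arrays, and by -0.21 ± 0.11 (adjusted p = 0.123) in the knockout. The wild-type Me1 call was lost without array 33, 49 or 51, with values from -0.28 to -0.25, when only the groups compared were fitted (adjusted p = 0.085), and in the deposited table, at -0.20 (adjusted p = 0.088). In the knockout Me1 was called lower after quantile normalization, at -0.34 (adjusted p = 0.015), after normexp and quantile, at -0.36 (adjusted p = 0.0043), in the deposited table, at -0.37 (adjusted p = 0.004), and without array 43 or 59. Neither gene was called in any genotype comparison.

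**Figure D3:**
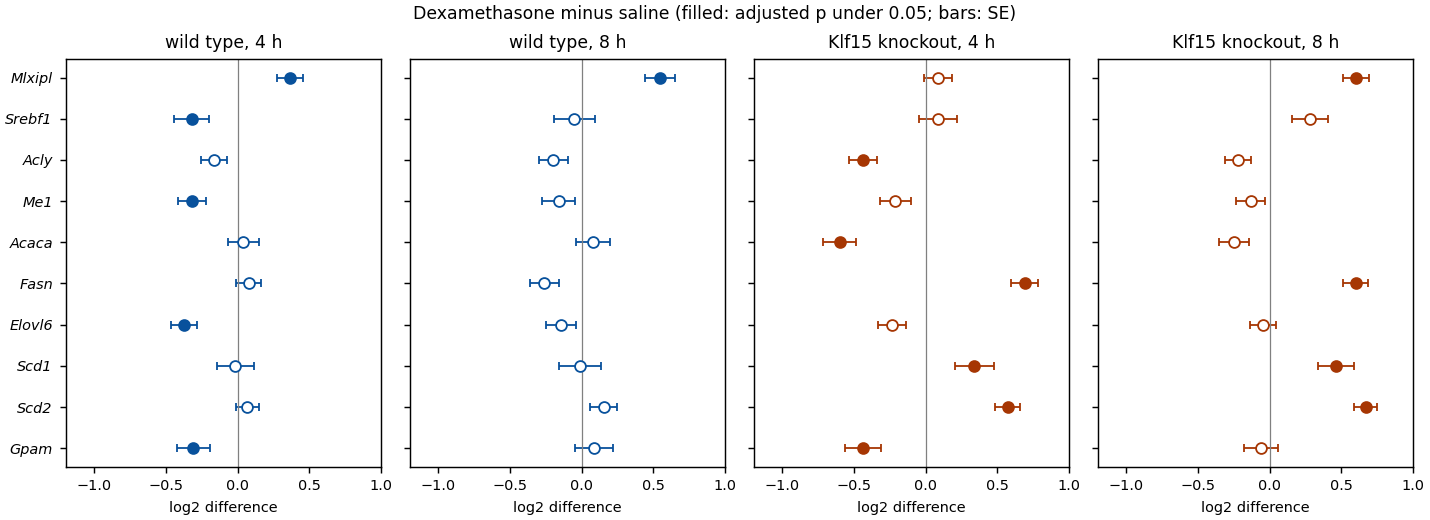
Dexamethasone minus saline (x axis, log2 difference; bars are SE) for the 10 genes (y axis) in each genotype and time; filled points have an adjusted p under 0.05. In the knockout panels Fasn and Scd2 lie at 0.57 or above, and in the wild-type panels they lie between -0.26 and 0.15.

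By comparison, dexamethasone changed 5 of 10 members in the wild type at 4 h, 1 higher and 4 lower, where 36.6% of all genes were called, 14.4% higher and 22.2% lower. After 8 h 1 member was changed, higher, where 23.5% were called, 9.22% higher. In the knockout it changed 6 at 4 h, 3 higher and 3 lower, against 42.5% of all genes, 24.7% higher and 17.8% lower. After 8 h 4 were changed, all higher, against 42.6%, 24.9% higher. In saline the knockout differed in 5 members at 4 h, 1 higher and 4 lower, against 24.6% of all genes, 5.98% higher and 18.6% lower. The 8 h comparison differed in 3, all lower, against 13%, 7.88% lower. Under dexamethasone it differed in 1 member at 4 h, as above, and in 2 at 8 h, Fasn higher and Mlxipl lower, against 4.92% of all genes, 3.02% higher and 1.9% lower. The dexamethasone effect differed between genotypes in 3 members at 4 h, 2 higher and 1 lower, against 16.3% of all genes, 13.2% higher and 3.12% lower. The 8 h effect differed in 2, both higher, against 5.8%, 4.25% higher. Between 4 and 8 h the effect differed in no member of the wild type, where 5.95% of all genes were called; by the same limma fit Fasn and Gpam had an unadjusted p under 0.05. The list as such was not tested, and the counts are not read as particular to the members.

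Arrays that did not overlap were likewise common among all genes. With dexamethasone, 2 members in the wild type at 4 h and 4 at 8 h did not overlap their saline arrays, against 33.5 and 38% of all genes, and 6 and 4 in the knockout, against 45.1 and 36.7%. Between genotypes in saline 6 and 4 members did not overlap at 4 and 8 h, against 37.2 and 27.2%. Under dexamethasone 1 did not overlap at 4 h and 5 at 8 h, against 6.08 and 21.6%. Between 4 and 8 h in saline, 0 members in the wild type and 4 in the knockout did not overlap, against 14.4 and 12.4%. The median difference of the 10 members with dexamethasone was -0.09 and -0.03 in the wild type at 4 and 8 h and -0.06 and 0.12 in the knockout, against -0.03, -0.06, 0.05 and 0.10 over all genes. Knockout minus wild type had member medians of 0.01 and -0.12 in saline and 0.08 and 0.11 under dexamethasone, against -0.04, -0.12, 0.04 and 0.04. For the difference of the effects the medians were 0.12 at 4 h and 0.08 at 8 h, against 0.10 and 0.15. Between 4 and 8 h the medians lay further from those of all genes, at 0.12 for the effect in the wild type and 0.19 in the knockout, against -0.01 and 0.002, and at -0.10 and -0.13 in saline, against -0.01 and -0.02. The saline difference between times enters the effect between times with the opposite sign, so these medians are not independent of each other. In the saline genotype comparison at 4 h the median of all genes was -0.04, and -0.20 when arrays were scaled to their medians.

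**Figure D4:**
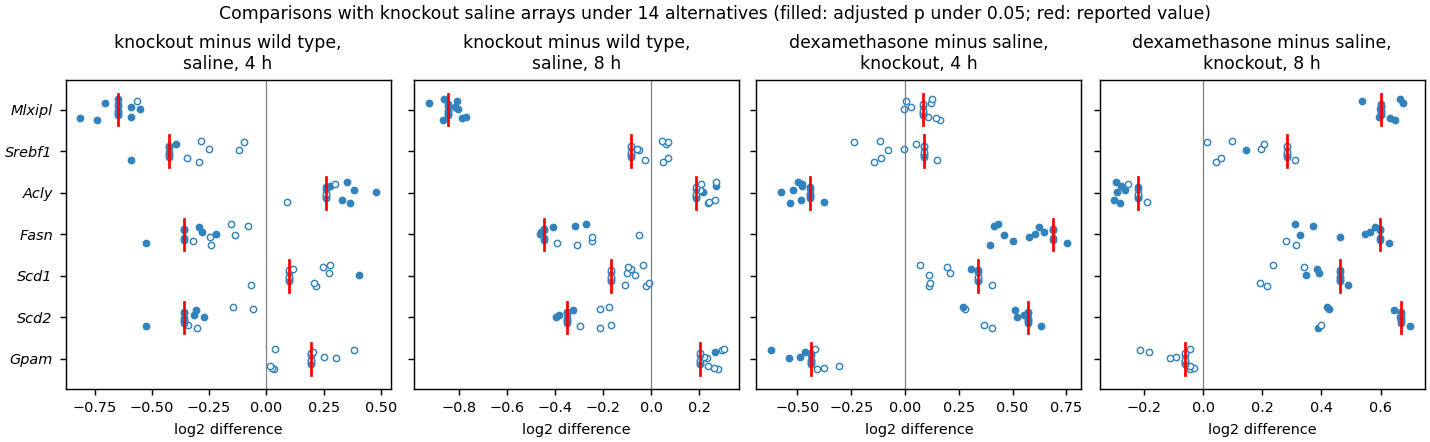
Log2 differences (x axis) of 7 genes (y axis) in the 4 comparisons that use the knockout saline arrays, under 14 alternative settings (points, filled where the adjusted p is under 0.05) beside the reported value (red line). Mlxipl keeps filled points near its line in saline, except for -0.57 at 4 h, while Fasn and Scd2 in saline reach -0.08 and -0.06 at 4 h.

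The enzymes around the members were described from lists of the pathway. Their values come from the reported fit alone, and no alternatives are given for them. This includes the comparisons that use the knockout saline arrays. Of 28 other enzymes of fatty acid activation, elongation and desaturation, dexamethasone raised 4 and lowered 7 in the wild type at 4 h, and raised 8 and lowered 6 in the knockout, with medians of 0.01 and 0.10. Over all genes 36.6 and 42.5% were called in these comparisons, 14.4 and 24.7% higher and 22.2 and 17.8% lower. The counts are not read as particular to these enzymes. Elovl1, which lengthens saturated fatty acids to very long chains, fell at 4 h, with differences of -1.31 ± 0.17 (SE; adjusted p = 1.5e-06) in the wild type and -1.03 ± 0.17 (adjusted p = 3e-05) in the knockout, and at 8 h (-0.71 and -0.39). Fads2, the delta-6 desaturase, fell at 4 h in both genotypes (-0.54 ± 0.09 and -0.73 ± 0.09, SE), and at 8 h (-0.33 in the wild type and -0.85 ± 0.09 in the knockout). Acsl5, which activates fatty acids with coenzyme A, fell in all 4 comparisons, with differences of -0.35 and -0.49 in the wild type at 4 and 8 h and of -0.72 at both times in the knockout. Slc25a1, the carrier that exports citrate from mitochondria, fell in the knockout at 4 and 8 h (-0.74 ± 0.12 and -0.68 ± 0.11, SE), and in the wild type (-0.46 and -0.53). Elovl5 rose in the wild type by 0.56 ± 0.08 (adjusted p = 7.9e-06) at 4 h and 0.37 at 8 h, and in the knockout by 0.46 and 0.43. Under dexamethasone at 8 h, 1 of the 28 differed in the knockout, Fads2 at -0.41 ± 0.09 (adjusted p = 0.015), where 4.92% of all genes were called.

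Glycerolipid assembly held the widest changes of these lists. Lpin1, a phosphatidate phosphatase that makes diacylglycerol, rose in the wild type by 1.97 ± 0.14 (SE) at 4 h and 0.81 ± 0.17 at 8 h, and in the knockout by 2.37 ± 0.15 and 1.86 ± 0.14. At 8 h its dexamethasone effect was larger in the knockout by 1.06 ± 0.22 (adjusted p = 0.011). Lpin2 rose by 1.39 and 1.14 at 4 h and by 0.42 and 0.58 at 8 h, in the wild type and the knockout. Agpat4, an acyltransferase, rose at 4 h by 0.49 and 0.88, and at 8 h in the knockout by 0.49. Of the 16 genes 4 rose and 1 fell in the wild type at 4 h, and 10 rose and 1 fell in the knockout at 8 h, with medians of -0.01 and 0.37 against -0.03 and 0.10 over all genes. Of all genes, 36.6 and 42.6% were called in these comparisons, 14.4 and 24.9% higher. Dgat2, which makes triglyceride, was lower in knockout saline lungs, with differences of -0.46 ± 0.09 and -0.32 ± 0.09 (SE) at 4 and 8 h, and rose there with dexamethasone at 8 h by 0.36.

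Among 17 genes that control SREBP, LXR and ChREBP, Insig2, which holds SREBP in the endoplasmic reticulum, rose in all 4 dexamethasone comparisons: by 0.33 ± 0.06 and 0.30 ± 0.07 (SE) in the wild type at 4 and 8 h, and by 0.73 ± 0.07 and 0.73 ± 0.06 in the knockout. Its effect was larger in the knockout by 0.40 ± 0.09 (adjusted p = 0.008) at 4 h and 0.43 ± 0.09 (adjusted p = 0.013) at 8 h. Insig1, its relative, fell in the wild type (-0.45 ± 0.13 and -0.46 ± 0.15, SE) and in the knockout (-0.65 and -0.43). Mid1ip1, which activates acetyl-CoA carboxylase, fell at 4 h in the wild type (-0.60 ± 0.08, SE) and the knockout (-0.49 ± 0.09), and at 8 h in the knockout (-0.24). Nr1h3, the gene of LXR alpha, fell at 4 h in the wild type (-0.52 ± 0.11) and the knockout (-0.57). Scap, the escort of SREBP, was lower in knockout saline lungs at 4 h, with a difference of -0.48 ± 0.10 (SE), and rose there with dexamethasone at 4 and 8 h, by 0.45 and 0.28. In all, 2 of the 17 rose and 4 fell in the wild type at 4 h, and 5 rose and 4 fell in the knockout at 8 h. Of all genes, 36.6 and 42.6% were called there.

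Of 8 genes that supply NADPH, Idh1, the cytosolic isocitrate dehydrogenase, rose with dexamethasone in the wild type by 0.47 ± 0.10 and 0.44 ± 0.12 (SE) at 4 and 8 h. In knockout saline lungs at 4 h it was higher by 0.67 ± 0.11, and its dexamethasone effect at 4 h was lower in the knockout, by a difference of -0.69 ± 0.15 (adjusted p = 0.0066). H6pd, which makes NADPH inside the endoplasmic reticulum, rose in the knockout by 0.66 ± 0.13 and 0.64 ± 0.12 and in the wild type at 8 h by 0.44 (adjusted p = 0.021); at 4 h the wild-type difference was 0.28 (adjusted p = 0.07). Tkt, transketolase, fell in the wild type (-0.49 ± 0.12 and -0.44 ± 0.14).

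Markers of other cell types moved with some of these comparisons. Of 12 adipocyte markers, 8 were higher and 1 lower with dexamethasone in the knockout at 8 h, against 42.6% of all genes called. Their median was 1.5, and Fasn, Scd1, Scd2 and Mlxipl rose in that comparison. The summed linear level of the 12, in multiples of the 75th percentile, was 11.1 to 12.3 on knockout saline arrays at 8 h and 24.7 to 55.3 on the dexamethasone arrays. Cidec, Fabp4 and Cfd made up 35.5, 22.0 and 17.9% of the sum, and Fabp4 is also made by endothelium and macrophages. Adipoq and Plin1 made up 0.979 and 0.219% of it, so the sum hardly reflects them. Adipoq, made in fat cells, ranged there from -3.88 to -2.68 in saline and -2.46 to 0.49 with dexamethasone, without overlap, and Plin1 from -5.18 to -4.56 and -5.02 to -1.77, with overlap. The sum was the highest, 55.3, on knockout array 62, which read 6.00 for Fasn, 4.17 for Scd1, 5.81 for Scd2, the second highest of its 4 arrays, and -1.48 for Mlxipl. Without that array the rises were 0.61, 0.50, 0.64 and 0.61, all called. At 4 h in the knockout 3 of the 12 markers were higher and 1 lower, against 42.5% of all genes. The sums were 13.3 to 24.7 in saline and 17.4 to 28.9 with dexamethasone. In the wild type at 4 h, where Fasn and Scd2 were not called, 3 were higher and 1 lower, against 36.6% of all genes. The sums there were 12.3 to 19.5 in saline and 21.0 to 25.1 with dexamethasone. Cidec and Fabp4 there had means of 2.51 and 1.06 in saline and 3.01 and 2.25 with dexamethasone. Adipoq and Plin1 had means of -2.90 and -4.44 in saline and -2.39 and -4.73 with dexamethasone, with overlapping arrays. Over the 29 arrays the sum correlated with Scd2 at r = 0.72 and with Fasn at r = 0.54, with Scd1 at 0.42 and with Mlxipl at 0.32. Within groups it correlated with them at 0.33, 0.17, 0.21 and 0.43. Its part in the rises was not tested.

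T and B cell markers fell with dexamethasone in each genotype and time, 10 of 12 in every comparison, with medians from -2.03 to -1.61. Of 9 endothelial markers 6 and 4 fell in the wild type at 4 and 8 h and 5 at both times in the knockout, with medians from -0.55 to -0.19, and 1 rose in each of these comparisons except the wild type at 8 h. Of 9 club and ciliated cell markers 4 rose at 4 h and 6 at 8 h in the knockout, none falling, with medians of 0.39 and 0.52; 2 rose and 1 fell in the wild type at 4 h and 1 rose at 8 h, with medians of 0.19 and 0.32. Of 9 alveolar macrophage markers up to 3 rose and 2 to 3 fell, with medians from -0.16 to 0.34. Of 5 type 1 cell markers up to 3 rose and up to 1 fell, and of 10 markers of smooth muscle and fibroblasts up to 4 rose and up to 2 fell. Of 4 liver markers, 1 rose in the wild type at 4 h and 1 in the knockout at 8 h. Alveolar type 2 markers had medians from -0.13 to 0.07 in the 4 dexamethasone comparisons. Of the 12, 4 were higher and 4 lower in the knockout at 4 h, and 3 higher and 2 lower at 8 h. In the wild type 1 was higher and 4 lower at 4 h, and 0 higher and 1 lower at 8 h. Of all genes, dexamethasone changed 36.6 and 23.5% in the wild type at 4 and 8 h, and 42.5 and 42.6% in the knockout. The part of these cell types in the members' values was not tested.

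Within groups, several members varied together from array to array. With group means removed, the correlation over 29 arrays was 0.84 between Acly and Scd1, 0.76 between Acly and Srebf1 as well as between Scd1 and Srebf1, 0.75 between Fasn and Srebf1, and 0.69 between Fasn and Scd2. The same residuals were correlated with the summed linear level of 8 of the 12 type 2 markers, those measured on every array. The r was 0.75 for Fasn, 0.70 for Srebf1, 0.69 for Gpam, 0.67 for Acly, 0.63 for Scd1 and -0.03 for Mlxipl. It was 0.42 for Scd2, 0.29 for Me1 and 0.11 for Elovl6. Sftpc, above background on 28 arrays, was not among the 8, and they do not stand for the whole list. In the knockout at 4 h their sum was 119.9 to 130.2 in saline and 99.8 to 117.0 with dexamethasone. In the wild type at 4 h it was 113.6 to 133.9 in saline and 98.0 to 117.1 with dexamethasone. The sum of all 12 was 536 to 614 on 3 saline arrays and 556 to 757 with dexamethasone. Its median was higher with dexamethasone in each genotype and time. With group and slide means removed, Acly with Scd1 was 0.67 and Fasn with Scd2 0.59. Fasn with Srebf1 was 0.28, and Srebf1 with Acly or Scd1 was close to 0. The correlation with the 8 markers was then 0.18 for Fasn, 0.10 for Srebf1, 0.36 for Gpam, 0.43 for Acly and 0.33 for Scd1. It was -0.05 for Scd2, 0.32 for Me1, -0.27 for Elovl6 and -0.06 for Mlxipl. For Acaca it was 0.72, against 0.15 with group means alone removed. Arrays of 1 slide share hybridisation and scan, and removing 8 slide means leaves few independent values, so these are descriptions without a p.

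**Figure D5:**
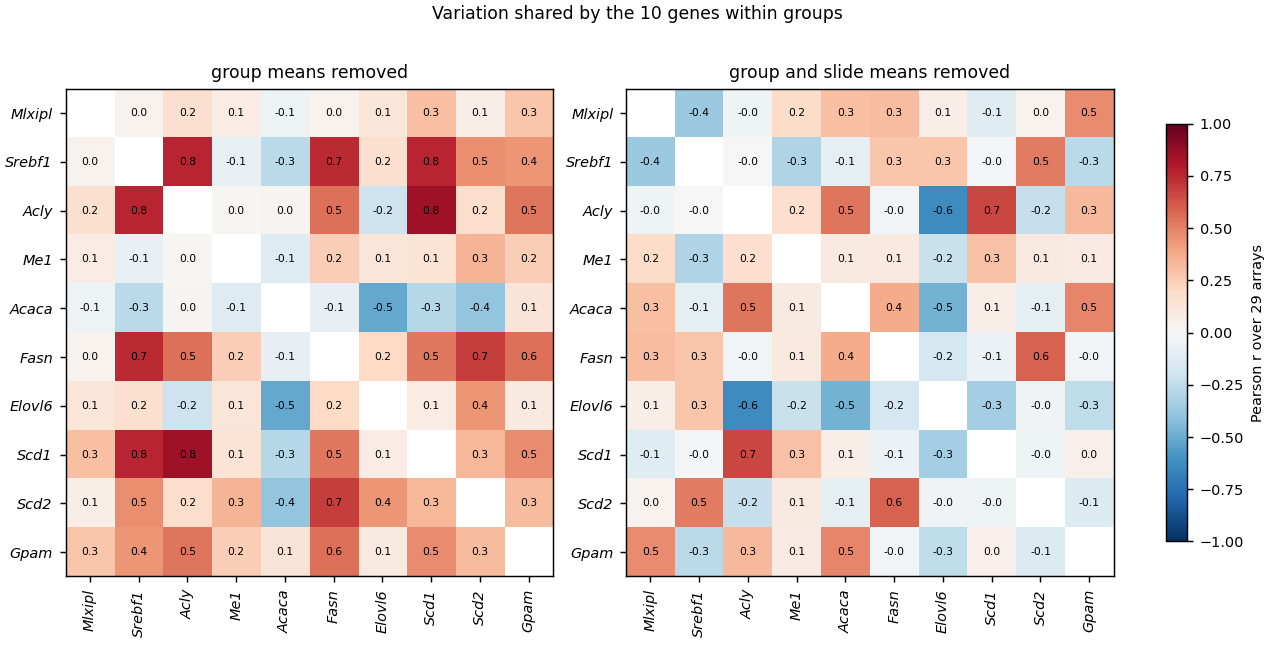
Pearson r over 29 arrays between each pair of the 10 genes (both axes), after removing group means (left) and group and slide means (right); red is positive and blue negative. The block of Srebf1, Acly, Fasn and Scd1 on the left, up to 0.84, thins on the right, where Acly with Scd1 stays at 0.67 and Fasn with Scd2 at 0.59.

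The genes most like each of the other members over the 29 arrays were Washc3 (r = 0.92) for Fasn, Fxr1 (0.95) for Scd2, Ints4 (0.93) for Acly, Sertad3 (0.92) for Srebf1, Prss8 (0.87) for Acaca, Irf1 (0.83) for Elovl6, Dram1 (0.82) for Gpam, Ppa1 (0.81) for Scd1 and Mrpl17 (0.80) for Me1. Other members were left out of this ranking, and the points share groups and slides.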

How the data were processed

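Lung total RNA was labelled with Cy3 and hybridised to whole mouse genome arrays, per the labels' protocols. Spot intensity comes from the deposited scanner output, which the headers credit to Feature Extraction 10.7.3.1 and the submitters' processing notes to 10.6. Per the file headers, background subtraction and spatial detrending gave the processed signal, with no scaling across arrays. A deposited series table of log2 values, of unstated normalization, served only as an alternative.

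Control and outlier spots (0.101 to 0.908%) were left out, spots of a probe averaged, and the log2 processed signal was taken minus the array's 75th percentile. A probe was kept (33931) if some group had it well above background on 3 or more arrays. RefSeq accessions of GRCm38.p6 gave the names (24844 of 41174 probes matched 1 gene), and each gene was read from its kept probe of highest mean. Between 75.5 and 88.5% of spots passed the background test; precision is limited by how many arrays each group has. limma 3.58.1 in R 4.3.3 fitted 8 group means to 29 arrays, with Benjamini-Hochberg adjustment over 15350 genes (or 33931 probes) within each of 14 comparisons. The script was tested on simulated data.

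Named are the 10 members with every probe, Klf15, Fkbp5 and Tsc22d3 as label checks, from each lipid list up to 4 tested genes with the lowest p in a comparison, the first 3 tested genes of a marker list, and the genes most correlated with a member. Cfd and Fabp4 were named after their values were seen, because they carry much of the adipocyte sum. The members and lists were chosen with earlier results of these data known. Alternatives covered scaling, background correction, the filter, the probe rule, slide as a block, variance settings, the bright-to-dim ratio of probes as a covariate, the deposited values, and each array left out in turn. Groups share no replicate number. The 8 slides held 2 to 4 arrays, each with more than 1 group.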

Additional observations from a re-analysis of the deposited data

Results flagged for a closer look

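In 4 of 70 groups of 4 arrays tested, 1 array lay far from the other 3, and chance flags about 1 in 20 such groups. Scd1 read 3.98 on knockout saline array 45 at 8 h, and 3.76 to 3.78 on the other 3. A dim probe of Acaca read -2.11 on knockout dexamethasone array 63 at 8 h and between -6.67 and -6.17 on the others. Another dim Acaca probe read -5.39 on knockout dexamethasone array 58 at 4 h and between -3.73 and -3.39 on the others. The second Fasn probe read 0.245 on wild-type saline array 35 at 4 h and between 0.517 and 0.545 on the others.

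In 6 cases a gene's dexamethasone effect differed between groups by the test of the difference itself. Between genotypes (knockout minus wild type) the effect differed at 4 h by -0.64 for Acaca, 0.61 for Fasn and 0.50 for Scd2, and at 8 h by 0.86 for Fasn and 0.52 for Scd2. Between 8 and 4 h in the knockout it differed by 0.52 for Mlxipl.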

How the results depend on the processing

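No paired analysis was possible because the groups share no replicate number. For single members, the alternatives that ended a call are given beside the result, by value or by count. Members other than Acaca and Fasn had a single probe. For them, alternatives in the filter or the probe rule could change the adjusted p but not the log2 difference. A call kept under those alternatives is therefore weak evidence of stability. A change of sign was not counted where neither value was called. Calls that arose under an alternative are given there too, except the following. Under array weights these were Acly (0.27) and Gpam (0.26) for saline knockout against wild type at 8 h, Gpam (0.51) for the effect between times in the wild type, Scd1 (-0.46) for saline between times in the wild type, and Fasn (-0.27), Acaca (-0.29) and Me1 (-0.46) for the same in the knockout. With slide as a fixed block they were Scd1 (0.41) in saline at 4 h and Acly (0.21) at 8 h between genotypes, Acly for the difference of the effects at 4 h (-0.54, and -0.43 with a random block) and Fasn for the effect between times in the wild type (-0.44, and -0.40 with a random block). Me1 in the knockout at 8 h was called after normexp and quantile (-0.25) and in the deposited table (-0.24), and Scd1 between genotypes under dexamethasone at 4 h without array 50 (0.56). A single value reversed, Scd1 for dexamethasone in the wild type at 4 h, at 0.19 (adjusted p = 0.0494) with slide as a fixed block against -0.02; the cause was not tested.

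The number of members called moved by more than 1.5 times as follows, and the causes were not tested. For dexamethasone in the wild type at 4 h it was 2 instead of 5 under median scaling and 3 with slide as a random block, only the groups compared or the deposited table, and 2 to 4 with an array left out. For the same at 8 h it was 2 instead of 1 with slide as a fixed or random block or the bright-to-dim covariate. For saline knockout against wild type at 4 h it was 3 instead of 5 after quantile normalization, normexp and quantile, the mean of probes, the dimmest kept probe and the deposited table, 0 with the bright-to-dim covariate, and 3 to 5 with an array left out. At 8 h it was 1 instead of 3 after quantile normalization, median scaling, normexp and quantile or only the groups compared, and 5 with array weights. Under dexamethasone at 4 h it was 1 to 2 with an array left out. At 8 h it was 1 instead of 2 after quantile normalization, median scaling, normexp and quantile, the dimmest kept probe, only the groups compared and the deposited table, and 1 to 2 with an array left out.

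For the difference of the dexamethasone effect between genotypes at 4 h it was 1 instead of 3 after quantile normalization, the mean of probes and the dimmest kept probe, and 0 after normexp and quantile, the bright-to-dim covariate and the deposited table. At 8 h it was 0 instead of 2 after quantile normalization, median scaling and normexp and quantile, 1 with the dimmest kept probe, the bright-to-dim covariate and the deposited table, and 1 to 2 with an array left out. For the effect between times it was 1 instead of 0 in the wild type with slide as a fixed or random block or array weights, and 0 instead of 1 in the knockout after quantile normalization, median scaling and only the groups compared, and 0 to 1 with an array left out. For saline between times it was 1 instead of 0 in the wild type with array weights, and in the knockout 0 instead of 1 under median scaling and only the groups compared, 4 with array weights and 0 to 1 with an array left out.

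The dim probes of Acaca lie far below the 75th percentile, which limits what they can show. The bright-to-dim covariate separates the knockout saline arrays from the rest, so group and covariate can hardly be told apart in comparisons with them.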
